A study of Homo sapiens with 12 samples.

Results

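The 39 genes described here are targets and sensors of the responses that cells mount to unfolded proteins in the endoplasmic reticulum (ER) and to a shortage of amino acids. They were taken by name from a table of 58735 genes, and all 39 were found and tested in every comparison. The measurements are bulk RNA sequencing of KYSE180 and KYSE150, established human lines of oesophageal squamous cell carcinoma, grown in RPMI-1640 with serum and harvested with trypsin. There were 4 groups of 3 libraries: native KYSE180, KYSE180 overexpressing CDCA7, native KYSE150, and KYSE150 in which a short hairpin RNA (shCDCA7) lowers CDCA7. The protein CDCA7 has a zinc finger and partners the chromatin remodeller HELLS. The labels give the genotype of the native cells as wild type and name no empty vector or scrambled hairpin, so CDCA7 and the construct or its delivery cannot be told apart within a line. Each manipulation was made in 1 line only, so the direction of the CDCA7 change and the line cannot be told apart either. The labels do not say whether replicates were separate cultures, clones or passages, so p-values measure the spread between these libraries, which may be technical.

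Secreted and membrane proteins fold in the ER with the help of chaperones, lectins and disulfide isomerases, and molecules that fail are moved to the cytosol and degraded. Unfolded protein is sensed by PERK, IRE1 and ATF6: IRE1 splices the XBP1 transcript, ATF6 is cut to release a transcription factor, and PERK phosphorylates the translation factor eIF2. Kinases that sense amino acid shortage and other stresses phosphorylate the same factor, which slows translation but favours that of ATF4, the activator of genes for amino acid synthesis and transport, of DDIT3 (CHOP) and of feedback inhibitors.

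Levels are given as FPKM (fragments per kilobase of gene length, scaled to sequencing depth). Differences are in log2(FPKM + 1) with their standard error (SE), which understates changes of low genes. A gene is called when its adjusted p in a limma-trend fit over all tested genes is under 0.05. CDCA7 itself was at 24.0, 18.2 and 17.4 FPKM in native KYSE180 and at 44.6, 59.1 and 57.9 with overexpression (difference 1.40 ± 0.17, adjusted p = 0.00947). In KYSE150 it was at 27.4, 25.6 and 25.6 FPKM in native cells and at 9.24, 10.1 and 8.83 with shCDCA7 (-1.39 ± 0.09, adjusted p = 0.00166). Its groups did not overlap in either line, and it moved in the direction of its label, although the KYSE180 call was lost under 3 of 14 alternatives. Libraries held 16.3 to 19.6 M reads, and the 39 genes had 43 to 62942 reads each per library. The squamous markers KRT5, KRT14 and TP63 and the epithelial marker EPCAM were present in both lines. SOX2 averaged 211 FPKM in native KYSE180 and 0.121 FPKM in native KYSE150, and KRT6A averaged 412 and 11.7 FPKM. The 4 leukocyte markers were under 1 FPKM in every library, as were 4 of 5 fibroblast and 2 of 3 endothelial ones. Mitochondrial genes took 4.76% to 6.38% of reads in native KYSE180 and 7.97% to 8.65% with overexpression. In KYSE150 they took 4.03% to 4.15% in native cells and 5.20%, 11.2% and 5.73% in shCDCA7 replicates 1, 2 and 3. The summed level of 9 epithelial markers (KRT5, KRT14, KRT6A, TP63, SOX2, EPCAM, CDH1, KRT8 and KRT18) moved with the groups as well. It ran from 2171 to 3692 FPKM in native KYSE180 and from 4111 to 4818 with overexpression. In KYSE150 it ran from 1193 to 1241 in native cells and from 1276 to 1617 with shCDCA7. KRT8 and KRT18 averaged 426 and 379 FPKM in native KYSE150, against 210 for KRT5, so this is not a sum of squamous markers alone. The part of the mitochondrial shares and of this sum in the results below was not tested.

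Promoter sequences show which of the genes carry the elements that the stress response is known to read. RefSeq promoter windows (GRCh38.p14, 250 bases before to 50 after the start) matched 36 of the 39 genes, without PDIA3, SHMT2 and SLC7A11. Both strands were searched. The ER stress response element (ERSE, CCAAT and CCACG with 9 bases of any kind between them), which ATF6 is known to bind together with NF-Y, was in windows of 7 of 36 genes (19.4%), against 0.0769% of all 35116 windows. These were CALR, CANX, CRELD2, HSP90B1, HSPA5, PDIA6 and XBP1. The related ERSE-II (ATTGG and CCACG with 1 base of any kind between them) was in HERPUD1, HYOU1 and SDF2L1 (8.33% against 0.0541%). The core of the C/EBP-ATF response element (CARE core, TGATGNAA), which ATF4 is known to bind with C/EBP factors, was in ASNS, CHAC1, HERPUD1 and SLC3A2 (11.1% against 3.62%). The SLC3A2 match does not lie wholly before the start. The core of the unfolded protein response element (UPRE, TGACGTGG) was only in HYOU1 (2.78% against 0.729%), where it overlapped an ERSE-II match. The genes were listed because they are known targets of these factors, so the shares describe the list, and a match is not evidence of binding here. Shares of the list count genes and those of the background count windows, so the units differ.

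The matches of 5 genes called below, HSPA5, HSP90B1, XBP1, HERPUD1 and ASNS, are shown with those of CRELD2 and CHAC1, which carry the same elements and were called with neither manipulation. Each is written 5′ to 3′ on the strand of its gene with 5 bases on either side, and capitals mark the fixed letters of the motif, in reverse complement where it lies on the other strand. HSPA5 is at chr9:125241386-125241414 on the minus strand, 48 bases before the start. HSP90B1, which has another match nearer to its start, is at chr12:103930211-103930239, CRELD2 at chr22:49918549-49918577, both on the plus strand, and XBP1 at chr22:28800598-28800626 on the minus strand. HERPUD1, on the plus strand of chromosome 16, has an ERSE-II at chr16:56932020-56932040 and a CARE core at chr16:56931961-56931978, which lies farther from the start. ASNS is at chr7:97872464-97872481 on the minus strand and CHAC1 at chr15:40953257-40953274 on the plus strand. The stretches of HSP90B1, ASNS and CHAC1 touch an exon annotated in GENCODE 29, and the gene and strand of that exon were not checked. These stretches and that of CRELD2 lie inside the annotated span of their own gene. They precede the RefSeq start used here, not the outermost annotated start.
HSPA5, ERSE: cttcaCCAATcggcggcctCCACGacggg
HSP90B1, ERSE: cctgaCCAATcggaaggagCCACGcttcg
XBP1, ERSE: gctggCCAATcgcggagggCCACGaccgt
CRELD2, ERSE: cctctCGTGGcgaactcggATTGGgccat
HERPUD1, ERSE-II: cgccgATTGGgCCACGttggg
HERPUD1, CARE core: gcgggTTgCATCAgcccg
ASNS, CARE core: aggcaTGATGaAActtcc
CHAC1, CARE core: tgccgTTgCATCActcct

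With CDCA7 overexpressed in KYSE180, the ER chaperone HSPA5, its partners DNAJB9 and MANF, the degradation factor HERPUD1, the stress transcription factor DDIT3, its target PPP1R15A, and the amino acid response genes DDIT4 and ASNS rose. The cystine transporter SLC7A11 fell. These are 8 of 39 called higher and 1 lower, against 4.65% higher and 4.43% lower of the 15944 genes tested. The median difference was 0.35 over the 39 genes and -0.00 over all genes tested, and 34 of the 39 differences were above 0 (49.4% of all genes). The overexpressing libraries lay above all native ones for 21 genes and below them for 3 (EDEM1, ATF5 and SLC7A11), against 17.7% and 17.4% of all genes. The calls rest on single libraries, among all genes as well. Leaving out native replicates 1, 2 and 3 gave 0, 7 and 15 higher genes (0.32%, 6.17% and 7.93% of all genes). Leaving out overexpression replicates 1, 2 and 3 gave 0, 2 and 0 (0.0063%, 0.669% and 0.0319% of all genes). The median difference of the 39 stayed between 0.24 and 0.48. The 2 that remained without overexpression replicate 2 were PPP1R15A and DDIT4. In the plot of all 39 genes in every library, native KYSE180 replicate 3 stands nearer to the overexpressing libraries than the other native ones do. It was the highest of the 3 native libraries for 30 of 39 genes (38.7% of all genes). Without it the 15 genes called higher compare with 7.93% of all genes and the 2 lower, ATF5 and SLC7A11, with 7.08%.

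**Figure D1:**
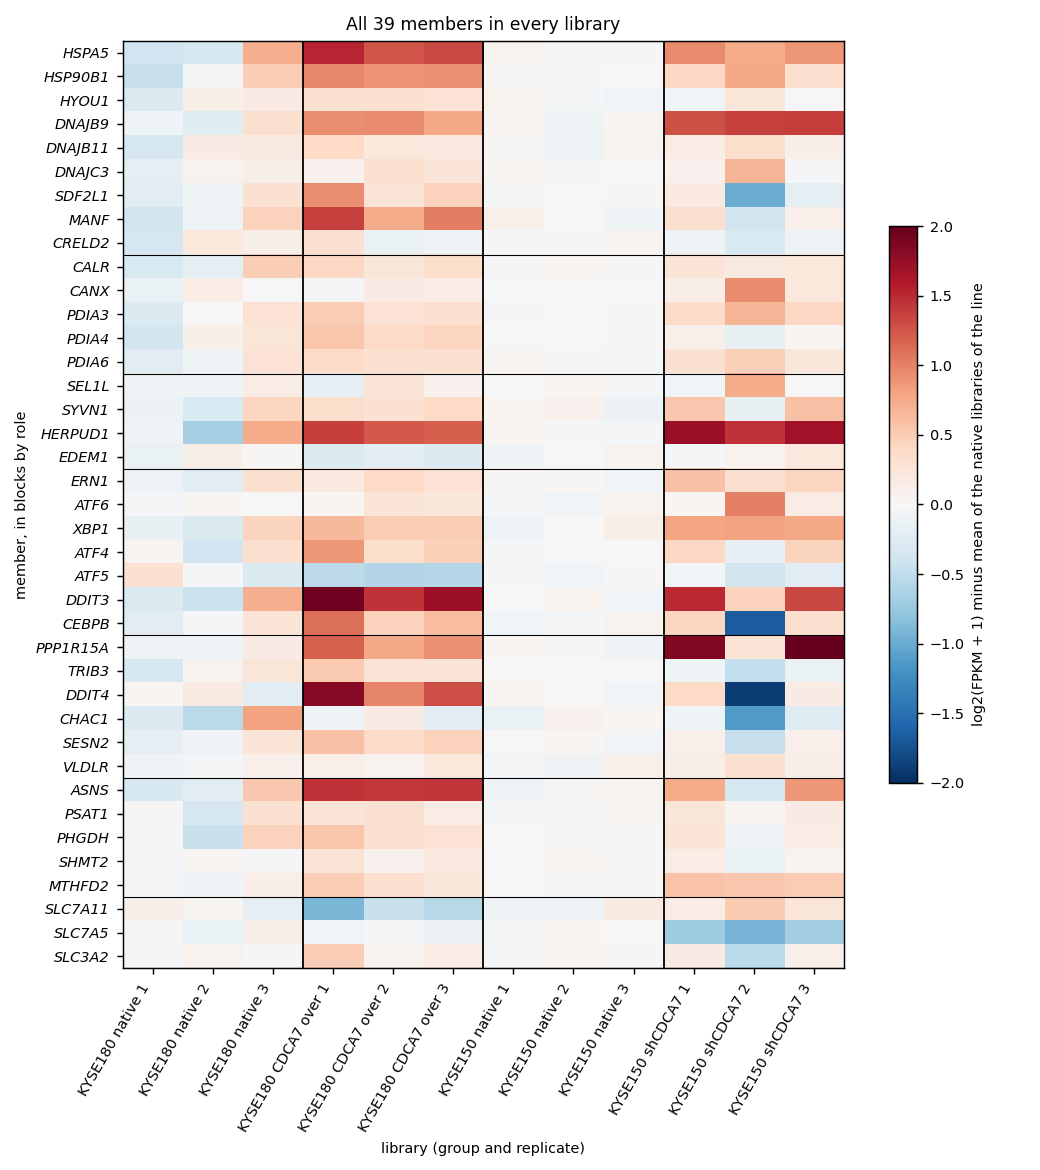
Level of the 39 genes (rows, in blocks by role) in each of the 12 libraries (columns), as log2(FPKM + 1) minus the mean of the 3 native libraries of the same line, with colours saturating at -2 and 2. Red is higher: native KYSE180 replicate 3 is redder than replicates 1 and 2, and shCDCA7 replicate 2 departs from replicates 1 and 3.

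Among the 9 soluble ER chaperones and co-chaperones, 3 were called higher in KYSE180. HSPA5, the BiP chaperone that holds the sensors inactive, was at 248, 259.8 and 539 FPKM in native libraries and at 939.8, 784 and 819 with overexpression. Native replicate 3 lay between the other native libraries and the overexpressing ones (difference 1.37 ± 0.32, adjusted p = 0.0396, and 1.73 without that library). DNAJB9, a BiP co-chaperone that acts on IRE1, was at 2.67, 2.28 and 3.84 and at 6.34, 6.47 and 5.62 FPKM. Its groups did not overlap (0.88 ± 0.17, adjusted p = 0.0283). MANF, a secreted ER factor that binds BiP, was at 20.2, 24.5 and 36.7 in native libraries and at 69.8, 44.9 and 54.8 FPKM with overexpression. All 3 overexpressing libraries were higher (1.05 ± 0.24, adjusted p = 0.0381). HSP90B1, the ER form of HSP90, was at 171, 232 and 332 and at 462, 441 and 446 FPKM, also without overlap, and did not pass (0.93 ± 0.25, adjusted p = 0.0555). It passed without native replicate 3 (1.17, adjusted p = 0.0151). The chaperones HYOU1, DNAJB11, DNAJC3, SDF2L1 and CRELD2 differed by 0.03 to 0.55 and did not pass.

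None of the 5 lectin chaperones and disulfide isomerases was called in KYSE180. CALR, CANX, PDIA3, PDIA4 and PDIA6, which hold glycoproteins and form disulfide bonds, differed by 0.10 to 0.45 with adjusted p of 0.152 or more. PDIA6 was called without native replicate 3 (0.48, adjusted p = 0.0439). Of the 4 genes of ER-associated degradation, HERPUD1, a membrane protein that gathers the degradation complex, was at 14.5, 9.39 and 26.3 FPKM in native libraries and at 41.7, 37.5 and 36.5 with overexpression. The native libraries spread widely and stayed below the overexpressing ones (1.27 ± 0.31, adjusted p = 0.0440). The ubiquitin ligase SYVN1 and its partner SEL1L did not pass. EDEM1, which directs glycoproteins to degradation, was at 5.85, 7.18 and 6.64 and at 5.14, 5.52 and 5.16 FPKM, lower without overlap, and did not pass (-0.27 ± 0.12, adjusted p = 0.197).

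The sensors themselves showed no call in KYSE180. ERN1, which encodes IRE1, was at 1.87, 1.63 and 2.85 FPKM in native libraries and at 2.50, 3.05 and 2.76 with overexpression (adjusted p = 0.281). ATF6 was at 12.4, 13.2 and 12.8 and at 13.2, 15.5 and 15.2 FPKM (adjusted p = 0.323). EIF2AK3, which encodes PERK and is not among the 39, was at 3.63, 3.30 and 4.31 and at 4.39, 4.40 and 5.27 FPKM (adjusted p = 0.246). ERN1 and ATF6 overlapped between groups, whereas EIF2AK3 did not. XBP1, whose spliced and unspliced forms are counted together, was at 31.4, 28.6 and 48.0 and at 55.7, 50.1 and 49.7 FPKM (0.55 ± 0.19, adjusted p = 0.105). ATF4 was at 133, 97.3 and 160.2 and at 233, 162 and 178 FPKM (0.57 ± 0.22, adjusted p = 0.136). Both lay higher without overlap and did not pass. XBP1 passed without native replicate 3 (0.77, adjusted p = 0.0141).

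DDIT3, the CHOP transcription factor that ATF4 induces, had the largest difference of the 39 genes in KYSE180. It was at 6.32, 5.64 and 13.9 FPKM in native libraries and at 33.7, 23.6 and 28.3 with overexpression. Native replicate 3 was above the other native libraries and below every overexpressing one (1.70 ± 0.30, adjusted p = 0.0238). Its exons overlap those of MARS on the opposite strand over 355 of 1307 bases, MARS was at 22.7 to 69.2 FPKM, and no source used here says whether strand was used in counting. MARS differed by 0.28 in KYSE180 (adjusted p = 0.269). In all, 11 of the 39 genes share exon bases with an opposite-strand gene that reached 1 FPKM. SYVN1 also shares 398 exon bases with FAU on its own strand, and FAU was at 116 to 197 FPKM. CEBPB, the C/EBP factor of the same response, was at 49.3, 55.9 and 68.8 and at 125, 79.1 and 88.4 FPKM and did not pass (adjusted p = 0.0603). ATF5, another translationally controlled factor, was lower without overlap, at 12.6, 9.77 and 8.17 and at 6.66, 6.38 and 6.39 FPKM, and did not pass (adjusted p = 0.0629). Exons of ATF5 share 626 of 2954 bases with NUP62 on the opposite strand, and NUP62 was at 9.37 to 28.1 FPKM.

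Of the 6 feedback and effector genes, 2 were called higher in KYSE180. PPP1R15A (GADD34), the phosphatase subunit that restores eIF2, was at 19.5, 19.7 and 23.5 FPKM in native libraries and at 48.3, 35.9 and 40.3 with overexpression. The groups were well separated (0.95 ± 0.14, adjusted p = 0.0175). DDIT4 (REDD1), an inhibitor of mTORC1, was at 49.1, 54.3 and 41.5 and at 171, 95.3 and 119 FPKM. Here native replicate 3 was the lowest library, not the highest (1.36 ± 0.22, adjusted p = 0.0197). TRIB3, a pseudokinase that restrains ATF4, SESN2, a leucine sensor, CHAC1, which degrades glutathione, and the lipoprotein receptor VLDLR did not pass, with differences of -0.05 to 0.48. CHAC1 was at 9.53, 7.79 and 21.3 FPKM in native libraries, so replicate 3 lay above the range of 11.1, 13.3 and 9.84 seen with overexpression.

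Of the amino acid enzymes, ASNS, which makes asparagine, was at 2.10, 2.33 and 4.67 FPKM in native KYSE180 and at 9.52, 9.32 and 9.50 with overexpression. The overexpressing libraries were close together and above every native one (1.43 ± 0.23, adjusted p = 0.0186). The serine enzymes PHGDH and PSAT1 and the mitochondrial folate enzymes SHMT2 and MTHFD2 differed by 0.18 to 0.38 and did not pass. SLC7A11, the cystine and glutamate exchanger, was at 32.7, 31.0 and 26.3 FPKM in native libraries and at 15.4, 21.6 and 19.9 with overexpression. It was the only one of the 39 called lower, with no overlap (-0.64 ± 0.15, adjusted p = 0.0434). SLC7A5, a transporter of large neutral amino acids, was at 235, 210.5 and 249 and at 223, 226 and 214 FPKM, which overlap (adjusted p = 0.800). SLC3A2, the heavy chain that SLC7A5 and SLC7A11 share, differed by 0.23 and did not pass.

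**Figure D2:**
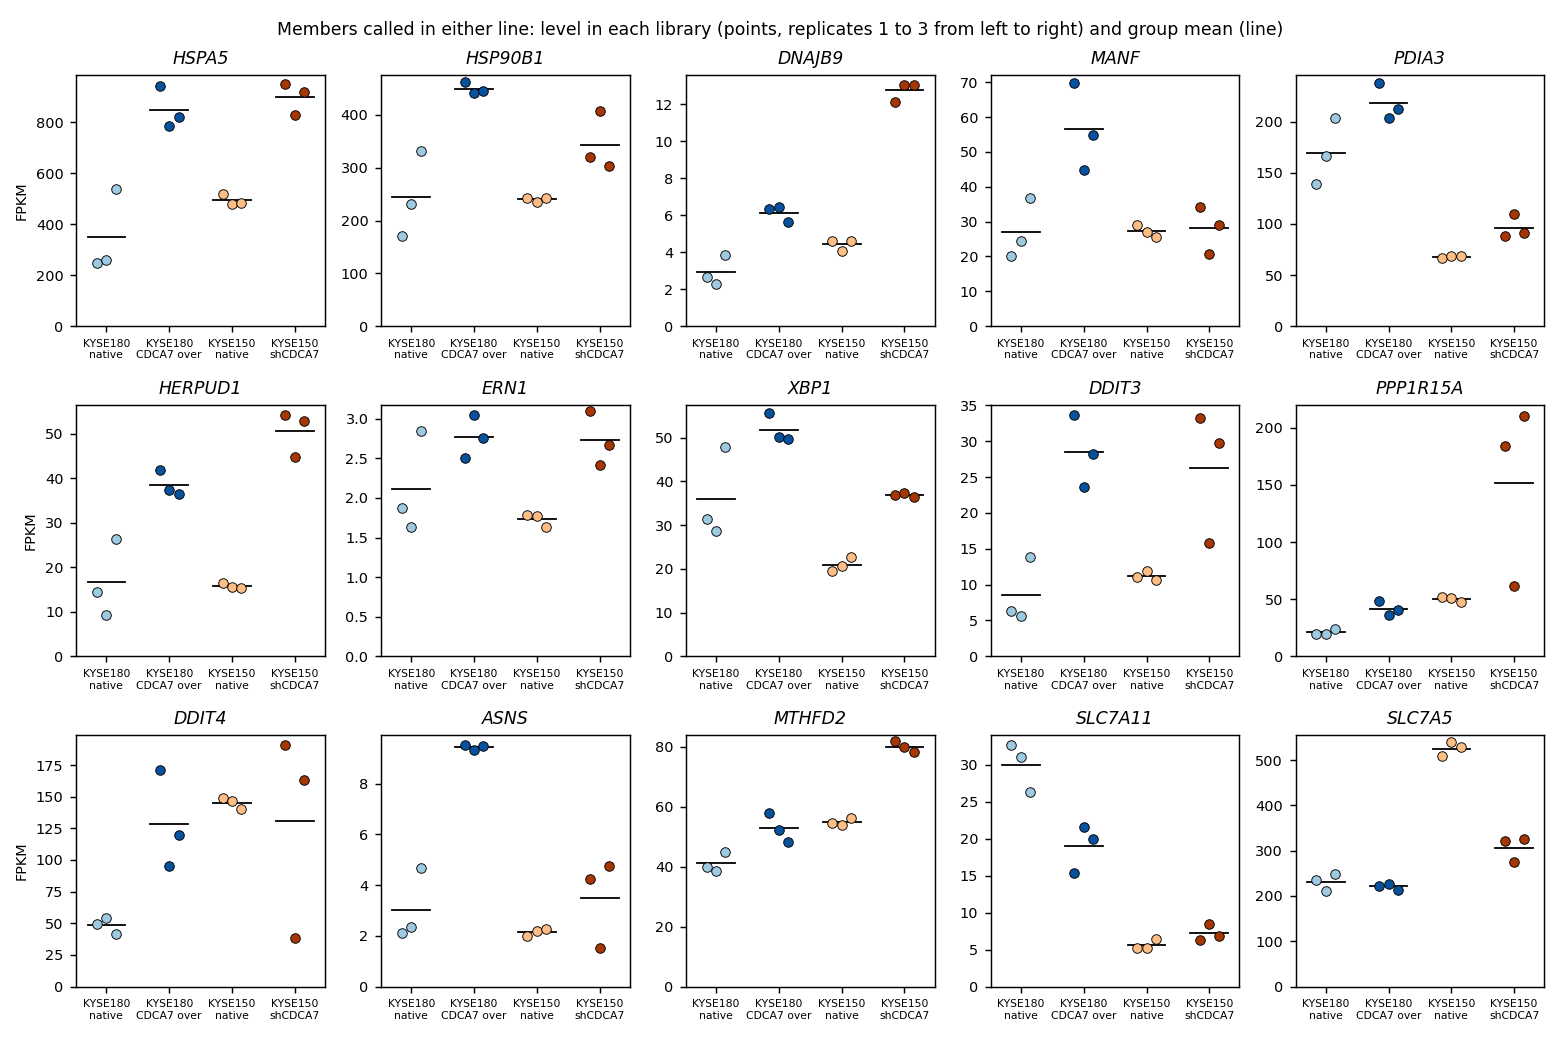
FPKM (y axis, from 0) of the 15 genes called in KYSE180 or KYSE150, by group (x axis), with a point per library and a line at the group mean. The groups with DDIT3 between 15.8 and 33.7 FPKM are those with CDCA7 overexpressed or shCDCA7, and native libraries stay at or under 13.9.

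With shCDCA7 in KYSE150, HERPUD1, DNAJB9, HSPA5, XBP1, DDIT3, the isomerase PDIA3, HSP90B1, the IRE1 gene ERN1 and the folate enzyme MTHFD2 rose, and the transporter SLC7A5 fell. These are 9 of 39 called higher and 1 lower, against 10.0% and 9.86% of the 14342 genes tested. The median difference was 0.22 against 0.00 over all genes tested, and 28 of 39 differences were above 0 (50.2% of all genes). The shCDCA7 libraries lay above all native ones for 15 genes and below them for 3 (CRELD2, TRIB3 and SLC7A5), against 25.3% and 22.5% of all genes. Leaving out native replicates 1, 2 and 3 gave 4, 3 and 5 higher genes (1.90%, 1.44% and 2.54% of all genes). Leaving out shCDCA7 replicates 1, 2 and 3 gave 6, 21 and 5 (6.19%, 29.5% and 5.24% of all genes). DNAJB9, HERPUD1 and XBP1 were called under each of the 14 alternatives run. When libraries were scaled to their total reads, the median of all genes moved by -0.16, and 20.5% of all calls were higher, against 50.5% with the deposited scaling. Under that scaling 17 of the 39 differences were above 0 and 4 genes were called higher (HSPA5, DNAJB9, HERPUD1 and XBP1), and the median of the 39 was 0.13 above that of all genes, against 0.22 above it with the deposited values. In KYSE180 the same scaling moved the median of all genes by -0.08 and the share of higher calls from 51.2% to 29%, with 31 of the 39 differences above 0, 7 genes called higher, and ATF5 and SLC7A11 lower.

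HERPUD1 had the largest difference of the 39 genes in KYSE150. It was at 16.4, 15.5 and 15.4 FPKM in native libraries and at 54.3, 44.7 and 52.9 with shCDCA7 (1.62 ± 0.10, adjusted p = 0.00166). The native libraries were close together and far below all 3 shCDCA7 libraries. DNAJB9 was at 4.60, 4.08 and 4.60 and at 12.1, 13.0 and 13.1 FPKM, again without overlap (1.34 ± 0.10, adjusted p = 0.00188). Exons of DNAJB9 share 183 bases with THAP5 and 99 with PNPLA8 on the opposite strand, out of 2837. HSPA5 was at 519.7, 481 and 484 in native libraries and at 951, 829 and 916 FPKM with shCDCA7 (0.86 ± 0.11, adjusted p = 0.00631). All 3 shCDCA7 libraries were higher, and the call was lost without native replicate 2 (adjusted p = 0.0529). HSP90B1 was at 243, 236 and 242 and at 319.5, 407 and 304 FPKM, with shCDCA7 replicate 2 the highest (0.50 ± 0.13, adjusted p = 0.0433). It did not pass under 10 of 14 alternatives, among them library totals. The remaining 6 chaperones did not pass, with differences of -0.33 to 0.24. MANF, which rose in KYSE180, was at 29.2, 26.9 and 25.5 and at 34.2, 20.9 and 29.1 FPKM here, and its groups overlapped (0.02 ± 0.18, adjusted p = 0.956).

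PDIA3 was at 66.5, 68.4 and 68.8 FPKM in native KYSE150 and at 88.4, 109.7 and 91.0 with shCDCA7, without overlap (0.49 ± 0.11, adjusted p = 0.0243). It was the only lectin chaperone or isomerase called, and it did not pass under 7 of 14 alternatives. CALR, CANX and PDIA6 were also above the native libraries in all 3, and PDIA6 lay nearest to the threshold (0.34 ± 0.10, adjusted p = 0.0533). Beside HERPUD1, the degradation genes SEL1L, SYVN1 and EDEM1 did not pass.

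Transcripts of 2 genes of the IRE1 branch, ERN1 and XBP1, were called higher in KYSE150. ERN1 was at 1.78, 1.77 and 1.63 FPKM in native libraries and at 3.10, 2.41 and 2.67 with shCDCA7, a low but separated level (0.45 ± 0.11, adjusted p = 0.0327), and it did not pass under 10 of 14 alternatives. XBP1 was at 19.5, 20.7 and 22.7 and at 36.9, 37.3 and 36.3 FPKM, with all 3 shCDCA7 libraries close together (0.79 ± 0.09, adjusted p = 0.00437). The table holds no splice forms, so IRE1 activity was not measured. ATF6 was at 9.29, 9.04 and 9.92 and at 9.70, 19.9 and 10.5 FPKM, where shCDCA7 replicate 2 was far above the others (adjusted p = 0.305). EIF2AK3 was at 2.54, 3.24 and 3.21 and at 3.49, 4.72 and 3.50 FPKM (adjusted p = 0.203). Neither of these sensors passed. ATF4 was at 148, 151 and 151 in native libraries and at 200.3, 134 and 204 FPKM with shCDCA7, where replicate 2 lay below the native libraries and the others above them (0.23 ± 0.17, adjusted p = 0.374). DDIT3 was at 11.1, 11.8 and 10.7 and at 33.2, 15.8 and 29.8 FPKM. All 3 were above native cells, replicate 2 by the least (1.09 ± 0.26, adjusted p = 0.0331). The DDIT3 call was lost under 9 of 14 alternatives, including leaving out any library but shCDCA7 replicate 2, with adjusted p up to 0.122.

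MTHFD2, a mitochondrial folate enzyme that ATF4 is known to induce, was at 54.6, 54.1 and 56.1 FPKM in native KYSE150 and at 81.8, 79.9 and 78.2 with shCDCA7. The groups were tight and apart (0.53 ± 0.08, adjusted p = 0.00732), and it did not pass under 4 of 14 alternatives, among them library totals. The other 4 enzymes did not pass. SLC7A5 was at 509, 539 and 528 and at 320.3, 276 and 325 FPKM, lower in all 3 shCDCA7 libraries (-0.78 ± 0.11, adjusted p = 0.00717, and 0.0561 without native replicate 2). Its partner SLC3A2 was at 152, 159 and 151 in native libraries and at 173, 106 and 166 FPKM with shCDCA7 and did not pass (adjusted p = 0.785). SLC7A11 was at 5.23, 5.23 and 6.49 and at 6.35, 8.49 and 6.85 FPKM, which overlap (adjusted p = 0.176). SLC7A5, HSPA5 and HSP90B1 have near-identical pseudogene copies, and no source used here says how reads with several matches were counted.

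Several genes of the eIF2 branch, and others of the 39 such as SDF2L1 and ATF6, differed among the shCDCA7 libraries of KYSE150. The library of replicate 2 had the highest mitochondrial share, and its correlation across tested genes was 0.952 with replicate 1 and 0.955 with replicate 3, against 0.995 between those. It was the lowest of the 3 shCDCA7 libraries for 24 of 39 genes (41.8% of all genes). PPP1R15A was at 51.9, 51.2 and 47.7 FPKM in native libraries and at 184, 61.2 and 211 with shCDCA7. Replicate 2 was just above native cells and the other shCDCA7 libraries were far above them (1.39 ± 0.45, adjusted p = 0.0723, and 1.95 ± 0.07, adjusted p = 7.8e-06, without replicate 2). DDIT4 was at 149, 147 and 139.9 and at 191, 38.6 and 163 FPKM, so that replicate 2 lay far below native cells and the others above (-0.44 ± 0.57, adjusted p = 0.617). Without that library the difference turned to 0.28 (adjusted p = 0.0116). ASNS was at 1.99, 2.19 and 2.27 in native libraries and at 4.24, 1.53 and 4.76 FPKM with shCDCA7 (adjusted p = 0.359, and 0.80, adjusted p = 0.000234, without it). CEBPB was at 45.3, 46.4 and 49.1 and at 63.5, 14.2 and 58.9 FPKM (adjusted p = 0.719, and 0.38, adjusted p = 0.00088, without it). In ASNS and CEBPB too, replicate 2 lay below every native library and replicates 1 and 3 above them.

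Without shCDCA7 replicate 2, 21 of the 39 genes were called higher and 2 lower (TRIB3 and SLC7A5), but 29.5% and 26.4% of all genes were then called. The 12 added to the 9 higher genes were CALR, CANX, PDIA6, SYVN1, ATF4, CEBPB, PPP1R15A, DDIT4, ASNS, PSAT1, PHGDH and SLC3A2. Some differences shrank instead: CANX went from 0.43 to 0.17 and HSP90B1 from 0.50 to 0.37, since replicate 2 was the highest library for them. The plot of differences with and without that library shows both movements.

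**Figure D3:**
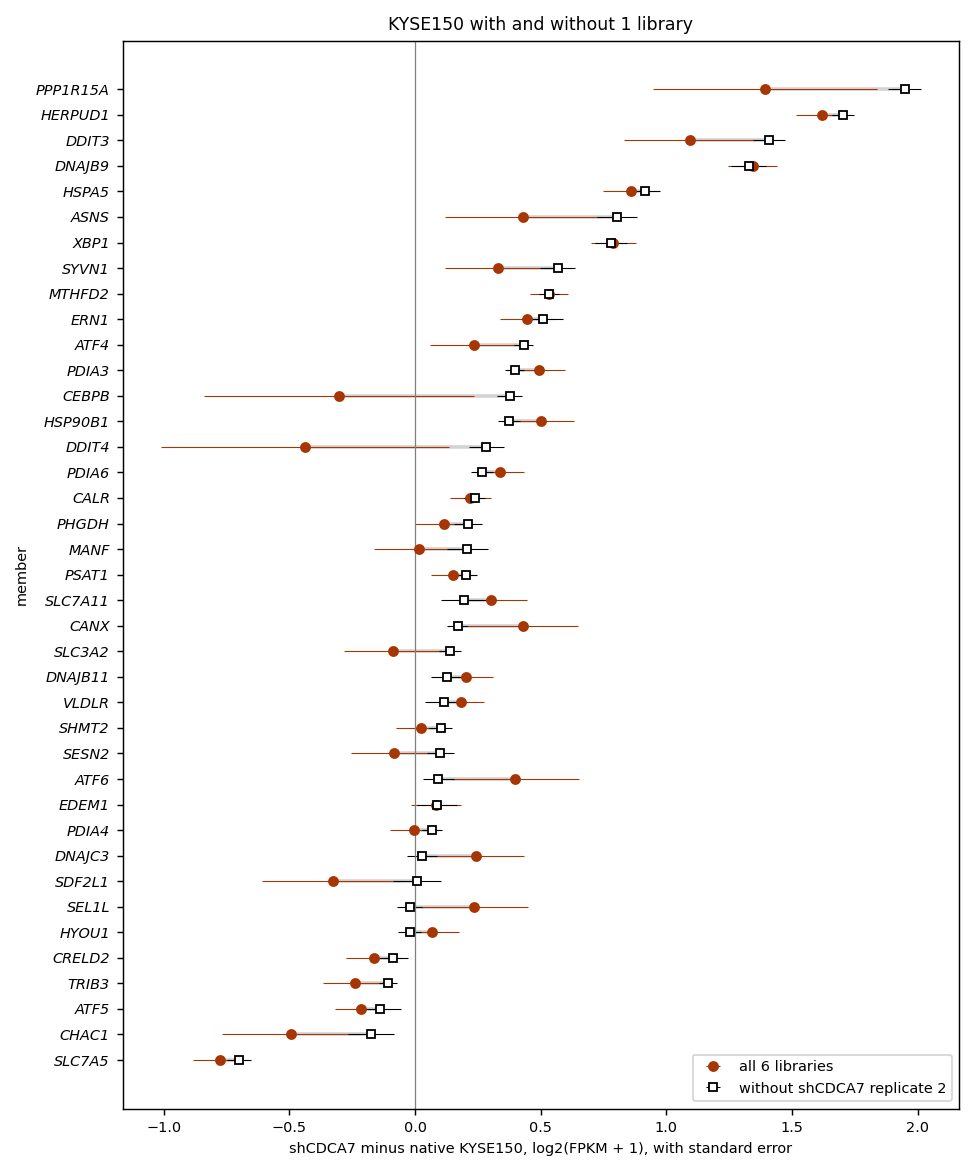
Difference between shCDCA7 and native KYSE150 in log2(FPKM + 1) (x axis, bars are standard errors) for each of the 39 genes (y axis), with all 6 libraries (filled) and without shCDCA7 replicate 2 (open). DDIT4 moves from -0.44 to 0.28 and PPP1R15A from 1.39 to 1.95, while DNAJB9, XBP1 and MTHFD2 stay in place.

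HSPA5, DNAJB9, HERPUD1 and DDIT3 were called higher in both lines, although CDCA7 rose in 1 line and fell in the other. This is 50% of the 8 genes called higher in KYSE180 and 44.4% of the 9 in KYSE150. Of the 13377 genes tested in both lines, 215 were called higher in both, or 35.9% and 15.7% of the higher calls in the respective lines. Both differences were above 0 for 26 of the 39 genes (66.7%), against 33.5% of all genes, and 0 of the 39 were called in opposite directions, as were only 0.172% of all genes. The comparisons share no library, but the deposited values were scaled over all 12 together. In KYSE180 the calls of HSPA5, DNAJB9, HERPUD1 and DDIT3 were lost under 7, 6, 8 and 5 of 14 alternatives. In KYSE150 they were lost under 1, 0, 0 and 9 of 14. With library totals, HERPUD1 was not called in KYSE180 and DDIT3 was not called in KYSE150. MANF, PPP1R15A, DDIT4 and ASNS passed in KYSE180 without passing in KYSE150, and HSP90B1, PDIA3, ERN1, XBP1 and MTHFD2 the reverse.

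**Figure D4:**
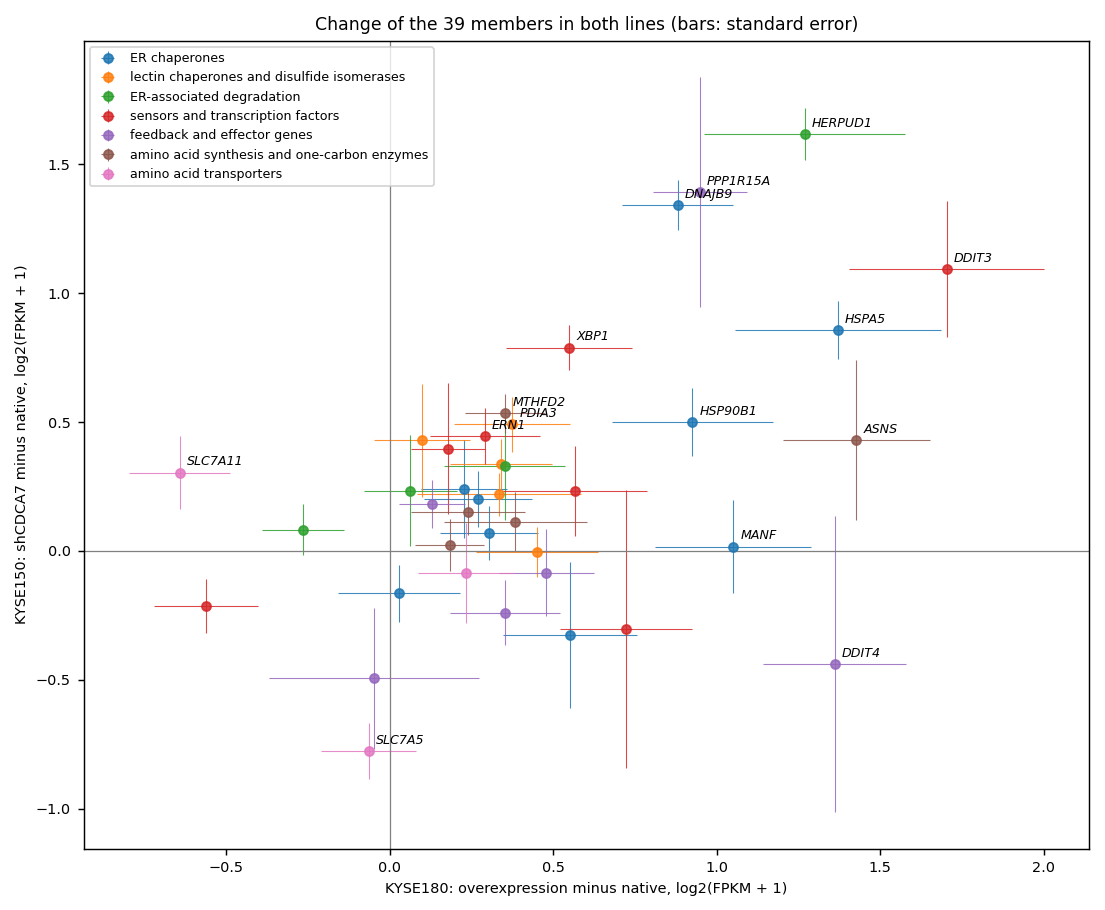
Difference with CDCA7 overexpression in KYSE180 (x axis) and with shCDCA7 in KYSE150 (y axis) in log2(FPKM + 1), with standard errors, for the 39 genes coloured by role. HERPUD1, DNAJB9, HSPA5 and DDIT3 lie at the upper right, SLC7A5 at the bottom and SLC7A11 at the left.

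The test of the difference between the manipulations, the overexpression effect minus the shCDCA7 effect, called SLC7A5 higher and SLC7A11 lower. These 2 of the 39 genes are near the shares of all 17088 genes, 2.87% higher and 2.70% lower. For SLC7A11 the effects were -0.64 in KYSE180 and 0.30 in KYSE150, a difference of -0.95 ± 0.21 (adjusted p = 0.0288). For SLC7A5 they were -0.06 and -0.78, a difference of 0.71 ± 0.17 (adjusted p = 0.0374). The other 37 did not pass. They include DDIT4 (1.80 ± 0.66, adjusted p = 0.137) and MANF (1.03 ± 0.33, adjusted p = 0.0903), so that a response in KYSE180 different from that in KYSE150 was not shown for them. The SLC7A11 call was lost under 9 and the SLC7A5 call under 11 of 17 alternatives. Among these, both were lost with no filter on low reads, with the replicate block, and without native replicate 1, overexpression replicate 1 or overexpression replicate 3 of KYSE180, or any native library or shCDCA7 replicate 3 of KYSE150. The adjusted p ranged from 0.0210 to 0.103 for SLC7A11 and from 0.0235 to 0.157 for SLC7A5.

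Before any manipulation, native KYSE180 was higher than native KYSE150 for 13 of the 39 genes and lower for 10. These counts are near the shares of all 17088 genes, 33.4% higher and 24.6% lower. Each line comes from 1 tumour, so the difference is between these lines. The 3 transporters split, with SLC7A11 higher and SLC7A5 and SLC3A2 lower in KYSE180. The cystine exchanger SLC7A11 was at 32.7, 31.0 and 26.3 FPKM in native KYSE180 and 5.23, 5.23 and 6.49 in native KYSE150 (2.22 ± 0.15, adjusted p = 2.1e-07). SLC7A5 was at 235, 210.5 and 249 and at 509, 539 and 528 FPKM (-1.18 ± 0.12, adjusted p = 7.82e-06). The factor ATF5 was at 12.6, 9.77 and 8.17 and at 1.71, 1.55 and 1.71 FPKM (2.06 ± 0.14, adjusted p = 2.86e-07). All 3 were separated between the lines without overlap. For ATF5, reads of the opposite-strand gene NUP62 (9.37 to 28.1 FPKM) may be included, since the strand setting is not given.

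Of the 14 chaperones, lectins and isomerases, 7 were called higher in native KYSE180 (33.4% of all genes), and 1, DNAJB9, was called lower (24.6%). The 9 soluble chaperones had a median difference of -0.03 and 4 above 0, whereas the 5 lectin chaperones and isomerases had a median of 0.35 and all 5 above 0. DNAJB11, a BiP co-chaperone, was at 31.9, 45.3 and 46.1 FPKM in native KYSE180 and 10.6, 9.63 and 11.0 in native KYSE150 (1.87 ± 0.14, adjusted p = 5.41e-07). DNAJC3, an ER co-chaperone also known as an inhibitor of eIF2 kinases, was at 24.4, 29.9 and 30.9 and at 10.7, 10.1 and 10.5 FPKM (1.36 ± 0.17, adjusted p = 3.19e-05). The lectin chaperone CALR was at 375, 409 and 658 and at 185, 193 and 186 FPKM (1.30 ± 0.19, adjusted p = 0.000106). The others called higher were CRELD2, HYOU1, PDIA3 and PDIA6. HSPA5 itself was at 248, 259.8 and 539 FPKM and 519.7, 481 and 484 in the native lines, overlapping because of KYSE180 replicate 3 (-0.60 ± 0.26, adjusted p = 0.0645).

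Of the 6 feedback and effector genes, 3 were called lower in native KYSE180, 1 was called higher and 2 did not pass, against 24.6% lower and 33.4% higher of all genes. DDIT4 was at 49.1, 54.3 and 41.5 FPKM in native KYSE180 and 149, 147 and 139.9 in native KYSE150 (-1.57 ± 0.47, adjusted p = 0.0128). Native differences come from 1 fit of all 12 libraries. This SE therefore includes the spread of the shCDCA7 libraries (191, 38.6 and 163 FPKM), and so does that of PPP1R15A below. TRIB3 was at 13.7, 18.5 and 21.0 and at 47.3, 47.9 and 47.9 FPKM (-1.40 ± 0.16, adjusted p = 1.51e-05). PPP1R15A was lower in KYSE180 as well (-1.23 ± 0.35, adjusted p = 0.0108), and CHAC1 was higher (1.03). The serine pathway was divided: PHGDH, its entry enzyme, was at 35.7, 26.5 and 50.3 in native KYSE180 and 9.07, 9.31 and 8.95 FPKM in native KYSE150 (1.88 ± 0.19, adjusted p = 5.77e-06), while PSAT1, the next enzyme, was lower in KYSE180 (-0.51 ± 0.14, adjusted p = 0.0102). SHMT2 and MTHFD2 were also lower there, by -0.24 and -0.41. The 8 genes with the largest native differences, SLC7A11, ATF5, PHGDH, DNAJB11, DDIT4, TRIB3, DNAJC3 and CALR, were called under each of the 17 alternatives run.

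**Figure D5:**
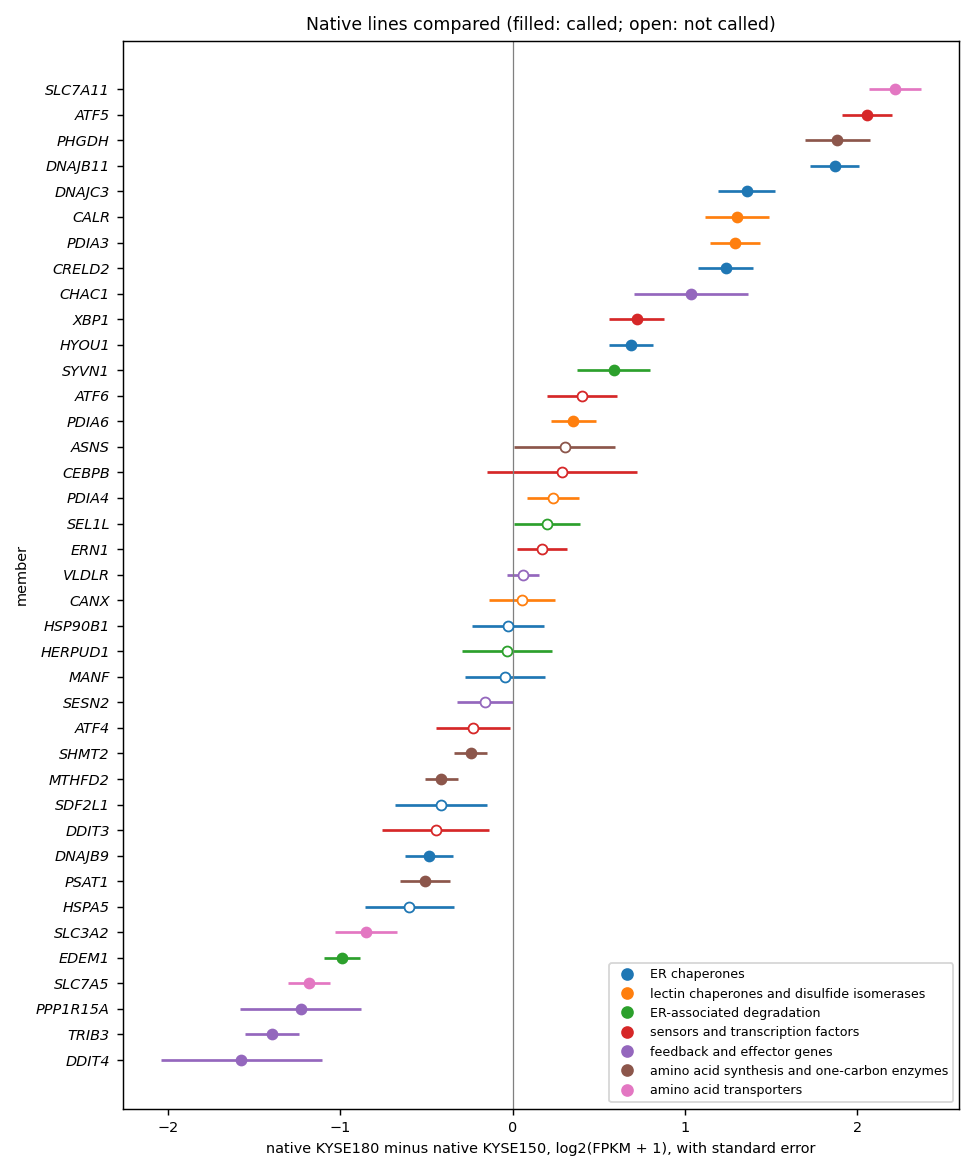
Difference between native KYSE180 and native KYSE150 in log2(FPKM + 1) (x axis, bars are standard errors) for the 39 genes (y axis), coloured by role and filled where called. SLC7A11, ATF5, PHGDH and DNAJB11 are at the upper end and DDIT4, TRIB3, PPP1R15A and SLC7A5 at the lower end.

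Other genes of the pathways, from 9 related lists, were counted in the same way, against 4.65% higher and 4.43% lower of all genes in KYSE180 and 10.0% and 9.86% in KYSE150. No list was tested as a set, and the genes are named as single calls. Few calls held throughout: of the related genes followed over 14 alternatives, 0 of 9 in KYSE180 and 5 of 23 in KYSE150 (ATF3, PMAIP1, PPP1R15B, HSPA1A and HSPA1B) were called under each. Among 12 tested sensors and transducers, such as EIF2AK3, ATF6B and the ATF6 proteases, 0 were called in either line. Of the other ER folding and redox genes, 1 of 25 was higher in KYSE180 and 5 of 24 in KYSE150, with 0 lower. The isomerase PDIA5 was called in both, at 10.5 ± 1.47 and 16.9 ± 1.74 FPKM in KYSE180 and 3.77 ± 0.224 and 5.98 ± 0.983 in KYSE150 (mean ± SD, n = 3), and lost its call under 6 and 9 of the 14 alternatives. ERP44 (0.66, adjusted p = 0.0135) and FKBP14 (0.65, adjusted p = 0.0169), which retain and fold proteins in the ER, led in KYSE150. Of 22 translocon and signal peptidase genes, the channel subunit SEC61A1 fell in KYSE180 (-0.61 ± 0.13, adjusted p = 0.0359), and 5 rose in KYSE150, led by the signal recognition particle genes SRP54 (0.67, adjusted p = 0.0257), SRP14 (0.54, adjusted p = 0.0385) and SRP9 (0.50, adjusted p = 0.0172). Of 22 other degradation genes 0 were called in KYSE180, and 2 were called higher in KYSE150, near the share of all genes, led by ERLEC1 (0.64, adjusted p = 0.00960).

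Genes around eIF2 gave 1 of 13 higher in KYSE180, EIF2S2, which encodes the beta subunit (0.52 ± 0.12, adjusted p = 0.0379). In KYSE150 there were 3 of 13 higher: EIF2S2 (0.58, adjusted p = 0.0377), the kinase EIF2AK1 (0.52, adjusted p = 0.0328) and PPP1R15B, the constitutive partner of the eIF2 phosphatase, at 8.67, 7.88 and 8.64 FPKM in native libraries and 17.1, 16.5 and 20.1 with shCDCA7 (1.0 ± 0.11, adjusted p = 0.00405). Of 29 other ATF4 and amino acid stress targets 4 rose in KYSE180 and 0 fell, led by the cell death gene BBC3, at 2.98, 3.06 and 5.46 and 19.3, 8.62 and 11.7 FPKM (1.52 ± 0.30, adjusted p = 0.0288), the sestrin SESN3 (0.78, adjusted p = 0.0367) and the seryl-tRNA synthetase SARS (0.68, adjusted p = 0.0477). Of 26 tested in KYSE150, 8 rose and 2 fell. The largest rises were PMAIP1 (NOXA), at 10.4, 10.5 and 13.6 and 46.3, 35.5 and 46.5 FPKM (1.81 ± 0.15, adjusted p = 0.00244), the stress factor ATF3, at 23.8, 23.9 and 23.8 and 80.3, 65.5 and 82.0 FPKM (1.62 ± 0.11, adjusted p = 0.00166), and KLF4 (1.11, adjusted p = 0.0272). The amino acid transporters SLC1A4 (-0.73, adjusted p = 0.0245) and SLC6A9 (-0.63, adjusted p = 0.0248) fell there, as SLC7A5 did.

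The 20 cytosolic aminoacyl-tRNA synthetases, several of them ATF4 targets, had 2 higher and 1 lower in each line, which in KYSE150 is the share of all genes called higher. SARS was called in both but lost the call under 9 of 14 alternatives in KYSE180 and 10 of 14 in KYSE150, with an adjusted p of up to 0.542. GARS rose in KYSE180 (0.59, adjusted p = 0.0472) and YARS in KYSE150 (0.50, adjusted p = 0.0377), each lost under 9 of 14, while WARS fell in KYSE180 (-0.54, adjusted p = 0.0314) and FARSA in KYSE150 (-0.78, adjusted p = 0.00842). Serine and folate genes outside the 39 had 0 of 11 called in KYSE180, and 2 of 12 fell in KYSE150. These were the transporter SLC1A4, already counted among the other ATF4 and amino acid stress targets, and the enzyme TYMS, thymidylate synthase (-0.55, adjusted p = 0.00769). Cytosolic heat shock genes, a separate response to misfolding outside the ER, gave BAG3 higher in KYSE180 (0.56, adjusted p = 0.0413) and 3 of 15 lower in KYSE150. These were the inducible HSP70 genes HSPA1A, at 39.2, 32.9 and 29.3 FPKM in native libraries and 9.55, 9.54 and 10.3 with shCDCA7 (-1.68 ± 0.12, adjusted p = 0.00189), and HSPA1B (-1.28, adjusted p = 0.00509), and the co-chaperone DNAJA1 (-0.64, adjusted p = 0.0391). HSPA1A and HSPA1B are near-identical copies, so reads may be divided between them uncertainly.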

How the data were processed

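The values the authors deposited are FPKM, 1 per gene and library, that is reads per gene divided by its length and by the scaled size of the library. Multiplied by gene length, 100% are whole multiples of the value of 1 read in their library (tolerance 0.05 reads), so whole reads were recovered. Per the submitters' processing notes, HISAT2 2.0.5 and DESeq2 1.20.0 were used, and the build named is mm10, a mouse build, whereas identifiers and positions match human GENCODE 29 (GRCh38) for all 39 genes. The counting tool and strand setting are not given in the sources used here.

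The unit being FPKM, the main fits used no count model. In R 4.3.3, limma 3.58.1 (limma-trend, two-sided, Benjamini-Hochberg over all tested genes, threshold 0.05) was run on log2(FPKM + 1), within each line for the manipulations and over 12 libraries for the native lines and the difference of manipulations. Genes with 15 reads in all, and with 10 or more in 3 or more libraries after scaling to the median library size, were tested. The scripts were tested on simulated data. A single read was 0.0511 to 0.0614 CPM, which covers counting error only. Alternatives were a pseudocount of 0.1, no filter, other scalings, limma-voom on recovered reads, the replicate block, 1 fit of all libraries and leaving out each library. Scaling by totals without mitochondrial genes was added after seeing the data.

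The 39 genes, related lists and tests were chosen with earlier results of these data known. Values in every library are given for genes called in a line or in the difference, the 8 largest native differences, and the sensors with their output factors. From each related list, up to 3 called genes per direction and line are named. CEBPB, EDEM1, CHAC1, SLC3A2 and several related genes are given per library beyond that rule and were chosen after their values were seen. MARCH6 of the degradation list was not matched by name in the table.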

Additional observations from a re-analysis of the deposited data

Results flagged for a closer look

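In a test of the difference itself, 2 of the 39 genes responded differently to CDCA7 overexpression in KYSE180 and to shCDCA7 in KYSE150. With 1 called higher and 1 lower, this is near the shares of all genes, 2.87% higher and 2.70% lower. SLC7A11 differed by -0.95 on the log2 scale (adjusted p = 0.0288), lower in 3 of 3 overexpressing libraries than in any native one, while its KYSE150 groups overlapped. SLC7A5 differed by 0.71 (adjusted p = 0.0374), lower in 3 of 3 shCDCA7 libraries, while its KYSE180 groups overlapped. The SLC7A11 call was lost under 9 and the SLC7A5 call under 11 of 17 alternatives. Line and direction of the CDCA7 change cannot be told apart in this difference.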

How the results depend on the processing

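The native differences kept their counts best, at 10 to 14 genes higher and 9 to 11 lower without 1 library. In KYSE180 the 8 higher and 1 lower genes became 0 and 0 with no filter on low reads, where 3 genes in all were called, against 1447 with it. The lower count was 2 with library totals, with totals without mitochondrial genes and in 1 fit of all 12 libraries, and 0 to 2 without 1 library. The higher count was 0 to 15 without 1 library. In KYSE150 the 9 higher genes became 5 with no filter, 4 with library totals and 3 to 21 without 1 library, and the 1 lower gene 0 to 2. The difference of the manipulations had 0 and 0 calls with no filter, and 0 to 3 higher and 0 to 2 lower without 1 library. Over all genes the counts were 1554 in KYSE150 and 530 in the difference with no filter (2854 and 952 with it), 2893 in KYSE180 in 1 fit of all libraries, and 476 in the difference with limma-voom. Without 1 library they ran from 1 to 2317 in KYSE180, 410 to 7948 in KYSE150 and 269 to 1632 in the difference.

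Same-numbered libraries did not deviate together (correlations of -0.076, -0.070 and 0.066 in KYSE180 and 0.015, -0.074 and -0.070 in KYSE150), so no pairing by number was seen. Differently numbered libraries ran from -0.098 to 0.116, and so few values cannot exclude pairing. With the replicate block, 4 genes were higher and 0 lower in KYSE180, 4 higher in KYSE150, and 0 and 0 in the difference, and 603, 1001 and 211 genes were called in all.

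With library totals, 31 in place of 34 of the 39 differences were above 0 in KYSE180, and 17 in place of 28 in KYSE150. Without native replicate 3, 1 of 39 turned in KYSE180, CHAC1, from -0.05 to 0.36. Without shCDCA7 replicate 2, 8 of 39 turned in KYSE150: HYOU1, SDF2L1, PDIA4, SEL1L, CEBPB (from -0.30 to 0.38), DDIT4, SESN2 and SLC3A2. MANF in KYSE150, at 0.02, became -0.24 with library totals, -0.0048 with limma-voom, -0.0074 with scaling within the line, -0.19 with totals without mitochondrial genes and -0.13 to 0.21 without 1 library. ATF4 became -0.029 with library totals, and DDIT4 ran from -0.86 to 0.28 without 1 library, being above 0 without shCDCA7 replicate 2 only. The cause was not tested. With 3 libraries a group, differences within their spread were not detectable.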
